A study of Mus musculus with 15 samples.

Results

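The genes of blood coagulation and fibrinolysis were followed in the livers of mice that developed diethylnitrosamine (DEN)-induced hepatocellular carcinoma, with and without delivery of the growth arrest specific gene Gas1. They are the 32 clotting and clot-lysis genes other than the serpins, chosen by gene name, and all 32 were found among the 22032 gene symbols of the array. None of the 32 passed the test in any of the 3 comparisons between the groups. The values nearest to the threshold were those of Procr, F7 and Vtn, higher in the DEN livers than in the controls, that of F7, lower in group G than in group T, and that of the fibrinogen chain gene Fga, lower in group G than in group C (a sign that median scaling turned). A single liver of the DEN group, whose acute-phase genes stood far above those of all other livers, held the highest value of 12 of the 32 genes. The like count over all genes was not made.

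Total liver RNA of male CD1 mice was labelled with 1 colour and hybridised to 15 arrays. Group C (control, 4 arrays of 3 mice) received saline and empty plasmid, group T (tumor, 5 arrays of 4 mice) received DEN and empty plasmid, and group G (6 arrays of 6 mice) received DEN and the plasmid pcDNA3/CAG-HAGas1, which drives a tagged GAS1 from the CAG promoter. DEN was given at day 15 after birth. Plasmid (50 μg each time) was injected weekly from week 28 to week 34 by hydrodynamic gene delivery, a rapid injection of a large volume into the tail vein. Livers were taken at week 35, whereas the sample records state an age of 10 weeks. All 3 groups share the hydrodynamic injections of plasmid. Hydrodynamic delivery reaches a part of the liver cells and the RNA is that of whole liver tissue, so that fewer cells of a type and less RNA per cell cannot be told apart.

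Between 15707 and 29765 spots per array were well above background, the measure of signal used here because arrays have no read depth, and the number of mice limits the precision. Arrays C3 and C4 carried 1 RNA code, as did T4 and T5. Their log2 differences had an SD of 0.146 and 0.143 over 8493 genes, against at least 0.213 for other pairs of arrays within a group, and each pair was averaged and counted as 1 mouse. This left 13 mice, named below by group letter and replicate number. Nothing in the labels states that the other samples came from separate animals, so the p-values measure the spread between these samples. Levels are log2 intensities after background correction and quantile normalization, a difference of 1 being a 2-fold change, and they are compared between mice for 1 gene, never between genes. All 10 hepatocyte markers were well above background on every array. Their summed intensity was 954873 to 1016110 in C, 703443 to 903037 in T and 861901 to 944163 in G, and 1 of them, Ttr (transthyretin), fell by 1.00 in T against C (adjusted p = 0.00425). The 10 did not move together. For T minus C 3 were positive, up to 1.22 for Pck1, and 7 negative, with 2 higher and 3 lower at an unadjusted p under 0.05 by limma. Gas1 itself was 6.53 ± 0.20 (SD, n = 3) in group C, 6.53 ± 0.09 (n = 4) in group T and 6.61 ± 0.11 (n = 6) in group G (adjusted p = 0.77 for G minus T), and whether its probe reads the transcript of the plasmid was not examined.

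Coagulation turns soluble fibrinogen into fibrin through a chain of proteases. Tissue factor, exposed on cells outside the vessel, binds factor VII and starts the chain, the contact system can start it on charged surfaces, and both routes meet at factor X and prothrombin. Thrombin then cleaves fibrinogen, factor XIII cross-links the fibrin, and plasmin dissolves it. Hepatocytes make most of these proteins and secrete them into the plasma, and endothelial cells carry the receptors and inhibitors that hold thrombin in check. Several of the plasma proteins, fibrinogen first among them, are acute-phase proteins, whose genes hepatocytes transcribe more strongly under interleukin-6.

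The fibrinogen genes Fga, Fgb and Fgg encode the 3 chains of one protein and lie together on mouse chromosome 3. Fga and Fgg were the genes whose levels in group G lay below all mice of group C, and the 150 bases before the start of each chain gene are shown for that reason, chosen after values had been seen, from RefSeq promoters of build GRCm38.p6, 5′ to 3′ on the strand of the gene, with matches to GTTAAT (the HNF1 half-site) and TTGCNNAA (the C/EBP core), searched on both strands, in capitals.

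Fga, chr3:83026003-83026152, plus strand: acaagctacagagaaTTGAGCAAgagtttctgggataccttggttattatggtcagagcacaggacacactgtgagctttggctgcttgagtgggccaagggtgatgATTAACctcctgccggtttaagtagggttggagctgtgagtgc
Fgb, chr3:83049864-83050013, minus strand: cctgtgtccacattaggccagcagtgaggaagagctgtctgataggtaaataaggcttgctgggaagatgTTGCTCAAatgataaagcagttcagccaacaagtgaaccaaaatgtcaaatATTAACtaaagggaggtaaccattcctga
Fgg, chr3:83007574-83007723, plus strand: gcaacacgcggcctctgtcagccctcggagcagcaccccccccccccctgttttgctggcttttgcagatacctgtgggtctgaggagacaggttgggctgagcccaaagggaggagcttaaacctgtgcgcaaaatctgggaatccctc

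Fga and Fgb each hold 1 match to either motif. The match to the HNF1 half-site begins 43 bases before the start in Fga and 29 in Fgb, and the match to the C/EBP core 135 and 80 bases before it. Fgg holds neither in this stretch. HNF1 and C/EBP are families of liver-enriched transcription factors that bind many hepatocyte genes. Promoters (from upstream of the start to shortly after it) were at hand for 25 of the 32 genes. These 25 genes have 27 promoters. GTTAAT was found in 22.2% of the 27 (F13b, F2, Fga, Fgb, Proz and Vtn), against 7.1% of all 32851 promoters. TTGCNNAA was found in 33.3% of the 27 (Cpb2, F11, F9, Fga, Fgb, Ggcx, Hrg, Klkb1 and Procr), against 10.8% of all promoters. All 6 genes with GTTAAT and 7 of the 9 with TTGCNNAA are made chiefly by hepatocytes, as are 17 of all 25 genes with a promoter at hand. CAAAGTCCA (the HNF4 core) and TTATGTAA (the D-box) were found in none of the 27, against 0.475% and 0.938% of all promoters. The E-box CACGTG was found in Tfpi, 3.7% of the 27 against 7.15% of all promoters. A match is a description of the letters and says nothing about binding in these livers.

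Of the 32 genes, 24 were well above background on all 15 arrays. F3, F8, F13a1, Plat, Tfpi, Thbd and Procr, which other cells than hepatocytes chiefly make, were so on some arrays, and Plau on none, so that the values of these 8 genes lie near the background.

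In group T against group C, limma called 0 of the 32 genes at an adjusted p of 0.05, with the smallest adjusted p at 0.0602 (Procr), while 2.37% of all genes were called. At an unadjusted p under 0.05 there were 5 of 32 (15.6%), Procr, Vtn, F7 and Tfpi higher in T and Ggcx lower, against 20.2% of all genes. Among genes well above background on all arrays it was 12.5% of the 24 against 26.8% of 8493. The methods' t-test gave 4 at an unadjusted p under 0.05, against 3828 of 22030 genes, and 0 after adjustment. In 5 genes (Procr, Vtn, F7, Tfpi and Thbd) every mouse of group T lay above every mouse of group C, which is 15.6% against 19.1% of all genes without overlap. Among genes well above background on all arrays these shares were 8.33% and 22.9%. The median log2 difference was 0.11 over the 32 genes and 0.0053 over all genes. Within the slides it was 0.0025 (slide 1) and -0.0017 (slide 2). Median scaling in place of quantile normalization called 11 of the 32 higher in T, with a median of 0.88. It called 2876 of all 22032 genes, in either direction, against 523 here. Under it the median of the 8493 genes well above background on all arrays was 0.65, against 0.0068 here. Under it the differences of F9, Ggcx, Klkb1, F13b, Fga, Fgb and Fgg for T minus C were positive, against negative values here. The signs of the other genes under it are not listed. At an unadjusted p under 0.05 by limma, 23 of the 32 were higher in T under it and 0 lower.

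In group G against group T, limma again called 0 of 32, against 0.132% of all genes. At an unadjusted p under 0.05 there were 9 of 32 (28.1%), against 10.8% of all genes. Of these, 8 were lower in G (F7, Fga, Vtn, Plg, Cpb2, Fgg, Procr and Hrg) and Plat was higher. Among genes well above background on all arrays it was 29.2% of the 24 against 16.4% of 8493. The methods' t-test gave 6, against 2301 of 22030 genes, and, after adjustment, 0. Without mouse T2 the 9 became 4, against 1829 of 22028 genes. F7 and Vtn were lower in every mouse of group G than in every mouse of group T, 6.25% of the 32 genes against 3.1% of all genes without overlap. Among genes well above background on all arrays these shares were 8.33% and 4.27%. The median difference was -0.05, or -0.02 without mouse G6, against -0.0084 over all genes.

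In group G against group C, limma called 0 of 32 as well, against 0.427% of all genes. At an unadjusted p under 0.05 there were 7 of 32 (21.9%), against 13.3% of all genes. Fga, Fgg, Ggcx and Proz were lower in G, and Tfpi, Thbd and F2r were higher. Among genes well above background on all arrays it was 20.8% of the 24 against 21% of 8493, so that these shares were alike. The methods' t-test gave 4, against 2235 of 22027 genes, and, after adjustment, 0. Without mouse C1 the 7 became 4, against 2073 of 22008 genes. The mice did not overlap for Fga and Fgg (lower in G) and Tfpi (higher in G), 9.38% against 5.95% of all genes. Among genes well above background on all arrays these shares were 8.33% and 9.22%. The median difference over the 32 genes was -0.02, against -0.0036 over all genes. Its sign was not stable, with 0.010 on the authors' values, 0.014 without mouse C3 and 0.0023 without mouse G6. The 3 comparisons share groups, so that their counts are not independent of each other.

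**Figure D1:**
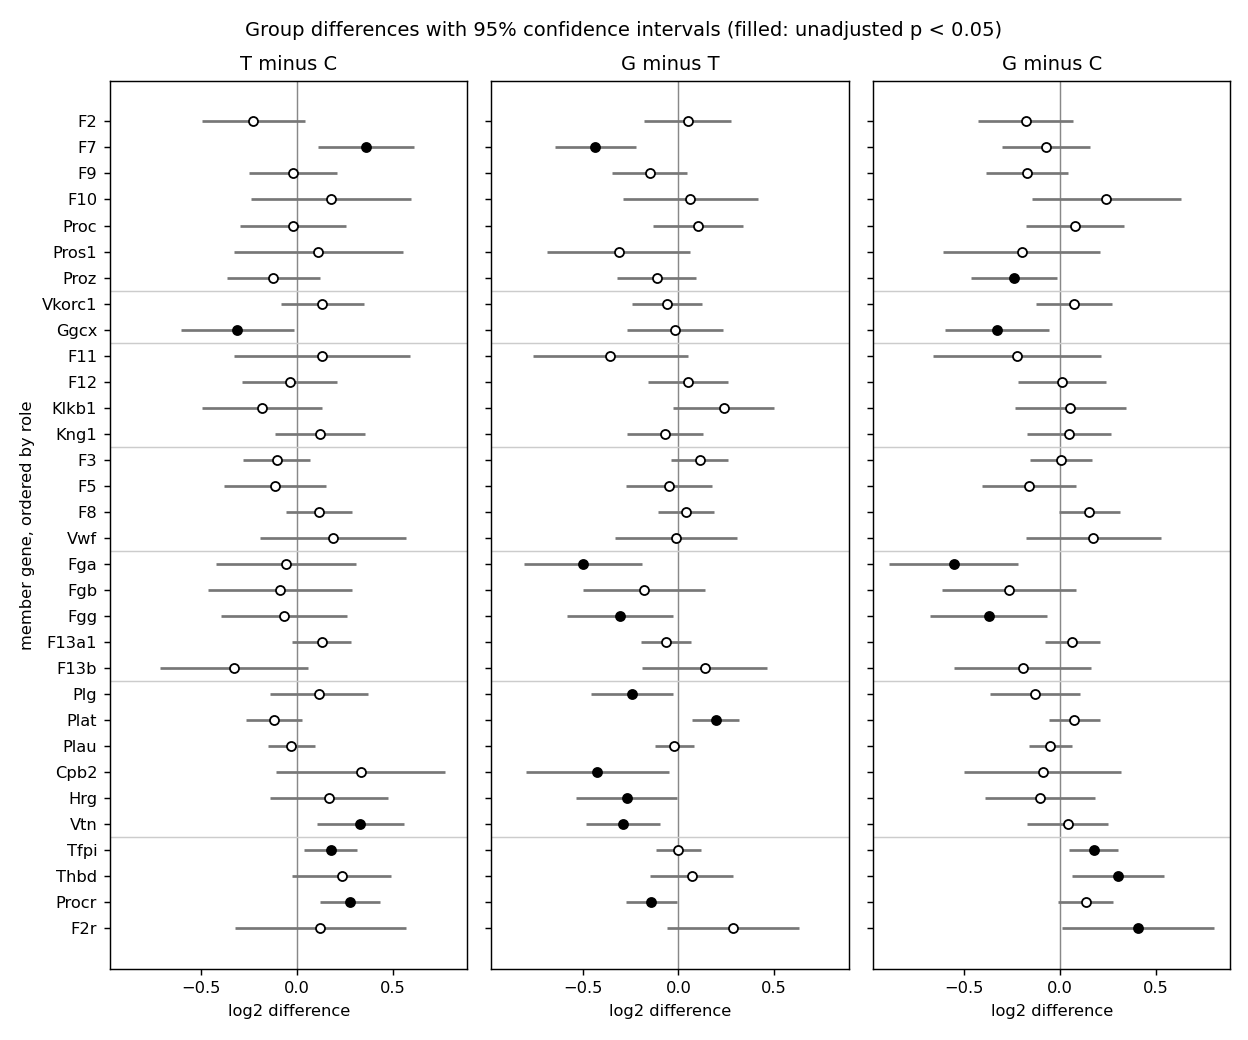
Log2 difference (x axis) of each of the 32 genes (y axis, ordered by role) for T minus C, G minus T and G minus C, with 95% confidence intervals from limma. Filled points have an unadjusted p under 0.05 (5, 9 and 7 genes), and no gene passed at an adjusted p of 0.05.

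The vitamin K-dependent proteins come first in the cascade. F2 encodes prothrombin, F7, F9 and F10 encode the zymogens of 3 further proteases, Proc encodes the anticoagulant protein C, and Pros1 and Proz encode its cofactor protein S and protein Z, the cofactor of the protein Z-dependent inhibitor. Of the 7 genes, 3 had a positive and 4 a negative difference of T minus C, between -0.23 and 0.36. F7 had the largest difference of the role. Its level was 9.82, 9.77 and 10.14 in mice C1 to C3, and 10.19, 10.47, 10.15 and 10.28 in mice T1 to T4. In group G it ranged from 9.56 to 9.97 with a median of 9.90. All 4 mice of group T lay above the other 9 mice, while groups C and G overlapped. The difference of T minus C was 0.36 (95% confidence interval 0.11 to 0.61, adjusted p = 0.11 by limma), that of G minus T was -0.43 (-0.64 to -0.22, adjusted p = 0.12) and that of G minus C was -0.07 (-0.30 to 0.16, adjusted p = 0.82).

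Both probes of F7, which overlap at chr8:13035257-13035316 and chr8:13035287-13035346 (mm9), gave like differences, 0.35 and 0.37 for T minus C and -0.45 and -0.42 for G minus T. Within the slides F7 differed by 0.41 and 0.22 for T minus C and by -0.62 and -0.28 for G minus T, none of these past the threshold. With the 15 arrays as separate samples F7 passed the test for G minus T (adjusted p = 0.0383).

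The other 6 genes of this role lay closer together. F2 was 14.69 ± 0.06 (SD, n = 3) in C, 14.47 ± 0.25 (n = 4) in T and 14.52 ± 0.15 (n = 6) in G. Proz had group means of 9.20, 9.08 and 8.97, and F9 of 10.16, 10.14 and 9.99. For Proc the interval of T minus C ran from -0.30 to 0.26, and for F10 from -0.24 to 0.60. The probes of F10 disagreed for G minus C. The probe at chr8:13055774-13055833 gave -0.10 and that at chr8:13056119-13056178 gave 0.59 (adjusted p = 0.76 and 0.50 over all probes). Pros1 was 9.0 in mouse T2 and between 7.78 and 8.44 in the other 12 mice.

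The vitamin K cycle serves these proteins. Ggcx encodes the carboxylase that modifies their glutamates, and Vkorc1 the reductase that restores the vitamin, the target of warfarin. Ggcx was 8.64, 8.19 and 8.35 in C1 to C3 and 8.15, 8.25, 7.87 and 8.04 in T1 to T4. It ranged from 7.81 to 8.28 in group G, with a median of 8.12. The groups overlapped. T minus C was -0.31 (-0.61 to -0.02, adjusted p = 0.22) and G minus C was -0.33 (-0.60 to -0.06, adjusted p = 0.28), whereas the interval of G minus T ran from -0.27 to 0.23. Mouse C1 held the highest value of all 13, and without it the differences of T minus C and G minus C were -0.19 and -0.20. Within the slides T minus C was -0.12 and -0.49, and median scaling turned G minus C to 0.35. Vkorc1 had means of 12.83, 12.97 and 12.91 in C, T and G.

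The contact system consists of factor XII (F12), prekallikrein (Klkb1), high-molecular-weight kininogen (Kng1) and factor XI (F11). Klkb1 differed most between T and C. It was 11.62, 11.56 and 11.62 in C1 to C3 and 11.69, 11.11, 11.59 and 11.28 in T1 to T4. In group G it ranged from 11.29 to 11.86, with a median of 11.69. The mice of the groups overlapped, with T2 the lowest of the 13 mice. T minus C was -0.18 (-0.49 to 0.13, adjusted p = 0.53), or -0.08 without T2. F12 had group means of 13.16, 13.13 and 13.18, and the 95% intervals of its 3 differences all lay between -0.29 and 0.26. F11 ranged from 9.74 to 10.79 over 12 mice, its spot in G5 carrying an outlier flag and being left out of the fit. Kng1 has a close paralog, Kng2, and its values are uncertain to the extent that probes bind both. Its probes gave -0.07 and 0.31 for T minus C (adjusted p = 0.88 and 0.21).

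Factors V (F5) and VIII (F8) are cofactors of the proteases, tissue factor (F3) is the initiator, and von Willebrand factor (Vwf) carries factor VIII and tethers platelets. Vwf was 7.41, 7.71 and 7.35 in C1 to C3, 7.78, 7.81, 7.68 and 7.44 in T1 to T4, and between 7.30 and 8.11 in group G, with a median of 7.60. The mice of all groups overlapped. T minus C was 0.19 (-0.19 to 0.57, adjusted p = 0.61). F5, the one gene of the role made chiefly by hepatocytes here, had means of 10.89, 10.77 and 10.72. For F3 the interval of G minus C ran from -0.16 to 0.17, and for F8 from -0.01 to 0.31.

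Fga, Fgb and Fgg encode the chains of fibrinogen, the precursor of fibrin. Fga was 11.80, 11.73 and 11.81 in C1 to C3, and 11.84, 12.25, 11.45 and 11.36 in T1 to T4. It ranged from 11.04 to 11.36 in the 6 mice of group G, with a median of 11.27. All mice of group G lay below all mice of group C, and mouse T4 lay at the upper end of group G. G minus C was -0.55 (-0.89 to -0.22, adjusted p = 0.15), a level 0.681 times that of group C. G minus T was -0.50 (-0.80 to -0.19, adjusted p = 0.20) and T minus C was -0.06 (-0.42 to 0.31, adjusted p = 0.90).

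Fgg was 16.62, 16.52 and 16.56 in C1 to C3, and 16.66, 16.82, 16.47 and 16.04 in T1 to T4. In group G it ranged from 16.06 to 16.50, with a median of 16.15, below all mice of group C. G minus C was -0.37 (-0.68 to -0.07, adjusted p = 0.27). Fgb was 17.11, 16.69 and 16.77 in group C and 16.85, 17.13, 16.78 and 16.31 in group T. It ranged from 16.31 to 16.85 in group G, with a median of 16.57, and G minus C was -0.27 (-0.61 to 0.08, adjusted p = 0.52). For all 3 chains T2 was the highest of the 13 mice and T4 the lowest of group T. When arrays were scaled to a common median, G minus C took the opposite sign in all 3 (0.30, 0.60 and 0.48 for Fga, Fgb and Fgg), without a call. On the authors' own normalized values G minus C was -0.53 for Fga, but 0.013 for Fgb and -0.0033 for Fgg, so that the lower values of Fgb and Fgg were not seen there. On the same values T minus C was 0.30 for Fgb and 0.34 for Fgg, without a call.

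The probes of Fga differed. The probe at chr3:82837260-82837319 (mm9) gave -0.88 for G minus C (adjusted p = 0.06 over all probes) and -0.60 for G minus T (adjusted p = 0.21). The probe at chr3:82835678-82835737 gave -0.22 (adjusted p = 0.79) and -0.39 (adjusted p = 0.65). For T minus C they had opposite signs, -0.28 and 0.17. When only groups C and G were fitted, Fga passed the test (adjusted p = 0.0357), which was so in 1 of the 30 alternative settings, whose adjusted p ran from 0.0357 to 0.83.

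F13b encodes the carrier subunit of factor XIII and F13a1 its catalytic subunit. F13b had the largest difference of T minus C of this role, -0.33 (-0.72 to 0.06, adjusted p = 0.33). Its level was 9.87, 9.51 and 9.81 in C1 to C3, 9.76, 9.19, 9.47 and 9.18 in T1 to T4, and between 9.22 and 9.95 in group G, with a median of 9.45. The groups overlapped. F13a1 exceeded background clearly on 2 arrays of group T and 1 of group G but on none of group C. With C raised to the background floor, T was 1.01-fold above C. The fitted fold was 1.09 (0.98 to 1.22, adjusted p = 0.35 by limma). The probes of F13a1 gave 0.38 and -0.12 for T minus C.

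**Figure D2:**
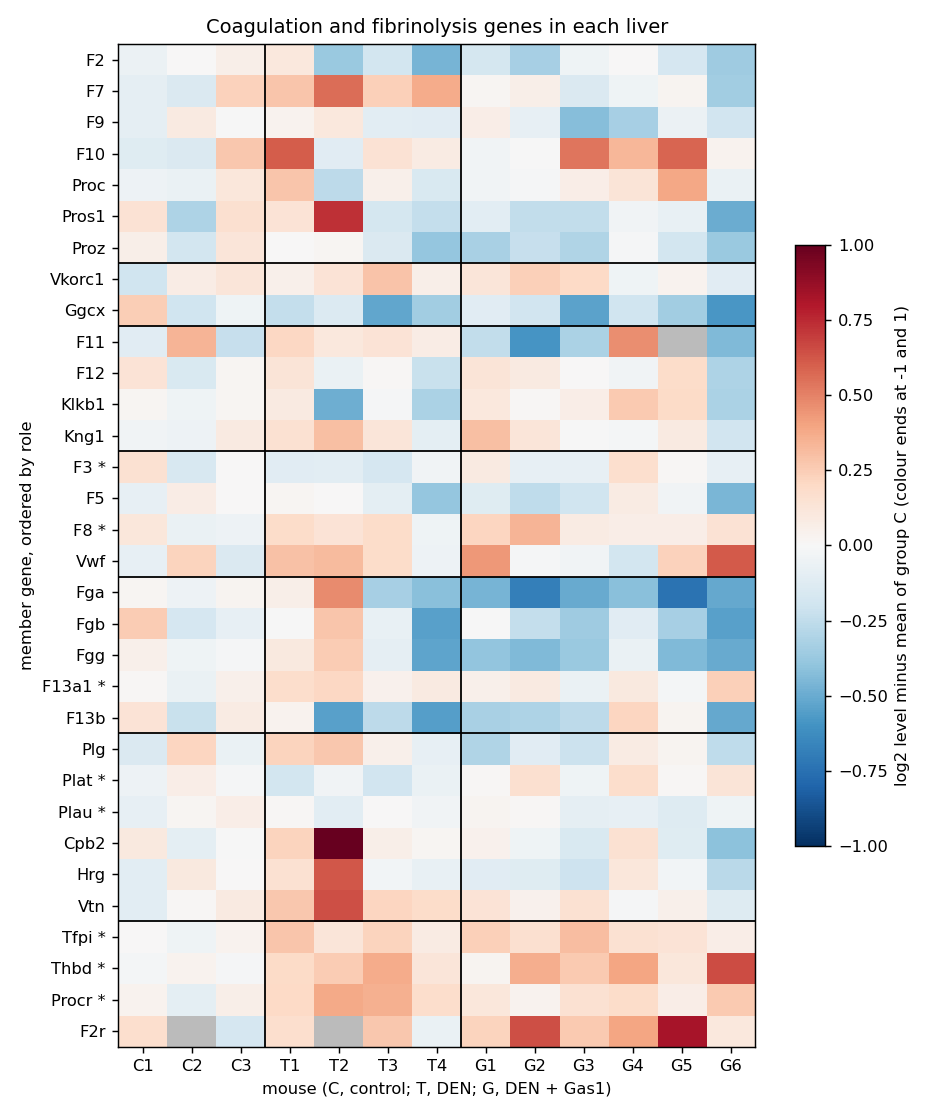
Log2 level of each gene (rows, ordered by role, horizontal lines between roles) in each of the 13 mice (columns), minus the mean of group C. Red is above and blue below that mean, grey is missing, and an asterisk marks the 8 genes that were not well above background on all arrays. Mouse T2 stood out in Cpb2, Hrg, Vtn and Pros1, and the row of Fga was blue in all mice of group G, where median scaling gave a positive G minus C.

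Fibrinolysis rests on plasminogen (Plg) and its activators Plat and Plau, and is slowed by the carboxypeptidase of Cpb2, which removes the lysines that plasminogen binds. Hrg encodes a plasma glycoprotein that binds plasminogen, and Vtn encodes vitronectin, an adhesive glycoprotein of plasma and matrix. Cpb2 had the largest difference of T minus C in this role. It was 13.73, 13.53 and 13.63 in C1 to C3, and 13.86, 14.66, 13.69 and 13.65 in T1 to T4. It ranged from 13.22 to 13.78 in group G, with a median of 13.55. T2 lay apart above every other mouse, while the other mice of T overlapped with groups C and G. T minus C was 0.33 (-0.11 to 0.77, adjusted p = 0.40) and G minus T was -0.42 (-0.80 to -0.05, adjusted p = 0.40), and without mouse T2 these were 0.10 and -0.19.

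Vtn was 15.002, 15.12 and 15.20 in C1 to C3 and 15.37, 15.75, 15.33 and 15.29 in T1 to T4. In group G it ranged from 14.98 to 15.26, with a median of 15.15. All mice of group T lay above all mice of groups C and G. T minus C was 0.33 (0.10 to 0.56, adjusted p = 0.11), G minus T was -0.29 (-0.48 to -0.10, adjusted p = 0.24) and the interval of G minus C ran from -0.17 to 0.25. Without T2 the first 2 values were 0.22 and -0.18. On the authors' own normalized values T minus C was 0.41 and passed the test (adjusted p = 0.0482). The single probe of Vtn spans 273 bases of mm9, chr11:78315393-78315665, and so crosses an intron: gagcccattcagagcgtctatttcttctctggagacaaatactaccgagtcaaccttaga.

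Hrg was 13.73 in T2 and between 12.84 and 13.26 elsewhere, and G minus T was -0.27 (-0.53 to -0.01, adjusted p = 0.45), or -0.12 without T2. Plg had means of 14.69, 14.81 and 14.57 in C, T and G, with G minus T at -0.24 (-0.46 to -0.03, adjusted p = 0.40). Plat, the tissue-type activator, was well above background on 1 array of C, none of T and 3 of G. With T raised to the background floor, G was 1.14-fold above T. This equals the fitted fold (1.05 to 1.25, adjusted p = 0.20 by limma), since the signal of Plat in T was no lower than the floor. Plau, the urokinase-type activator, had no array above background and gives no fold.

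The last role is held by the vessel wall. Tfpi encodes the inhibitor of tissue factor and factor VII, thrombomodulin (Thbd) and the receptor of Procr turn thrombin towards activating protein C, and F2r encodes the thrombin receptor PAR1. All 4 had a positive difference of T minus C and of G minus C, with medians of 0.20 and 0.24, and none passed the test. Tfpi was 6.08, 6.04 and 6.12 in C1 to C3, 6.36, 6.20, 6.30 and 6.17 in T1 to T4, and between 6.15 and 6.39 in group G, with a median of 6.24. The 3 mice of group C lay below the other 10. The difference was 0.18 for both T minus C (0.04 to 0.31, adjusted p = 0.15) and G minus C (0.05 to 0.30, adjusted p = 0.22), and the interval of G minus T ran from -0.12 to 0.12. At least 1 of its 3 probes was well above background on 1 array of C, 4 of T and 6 of G, so that the level of C lies near the background and these differences are those of measured signals, not of known levels.

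In group C no array had Procr or Thbd well above background. Procr was 6.08, 5.94 and 6.10 in C1 to C3, 6.24, 6.42, 6.40 and 6.21 in T1 to T4, and between 6.07 and 6.30 in group G. Group T lay above group C in all mice, with 2 of its 5 arrays well above background. With C raised to the floor, T was 1.13-fold above C. The fitted fold was 1.21 (1.09 to 1.35, adjusted p = 0.0602 by limma). Without mouse G6, and with the 15 arrays as separate samples (adjusted p = 0.0368), Procr passed the test in this comparison (adjusted p = 0.0495). Thbd was well above background on 1 array of T and 4 of G. With C raised to the floor, these groups were 1.15-fold and 1.20-fold above C. The fitted folds were 1.18 (0.98 to 1.41, adjusted p = 0.30) for T and 1.23 (1.04 to 1.45, adjusted p = 0.26) for G. F2r lacks values of C2 and T2, where its spots carried outlier flags, and the fit used the other 11 mice, with G minus C at 0.41 (0.01 to 0.80, adjusted p = 0.36).

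**Figure D3:**
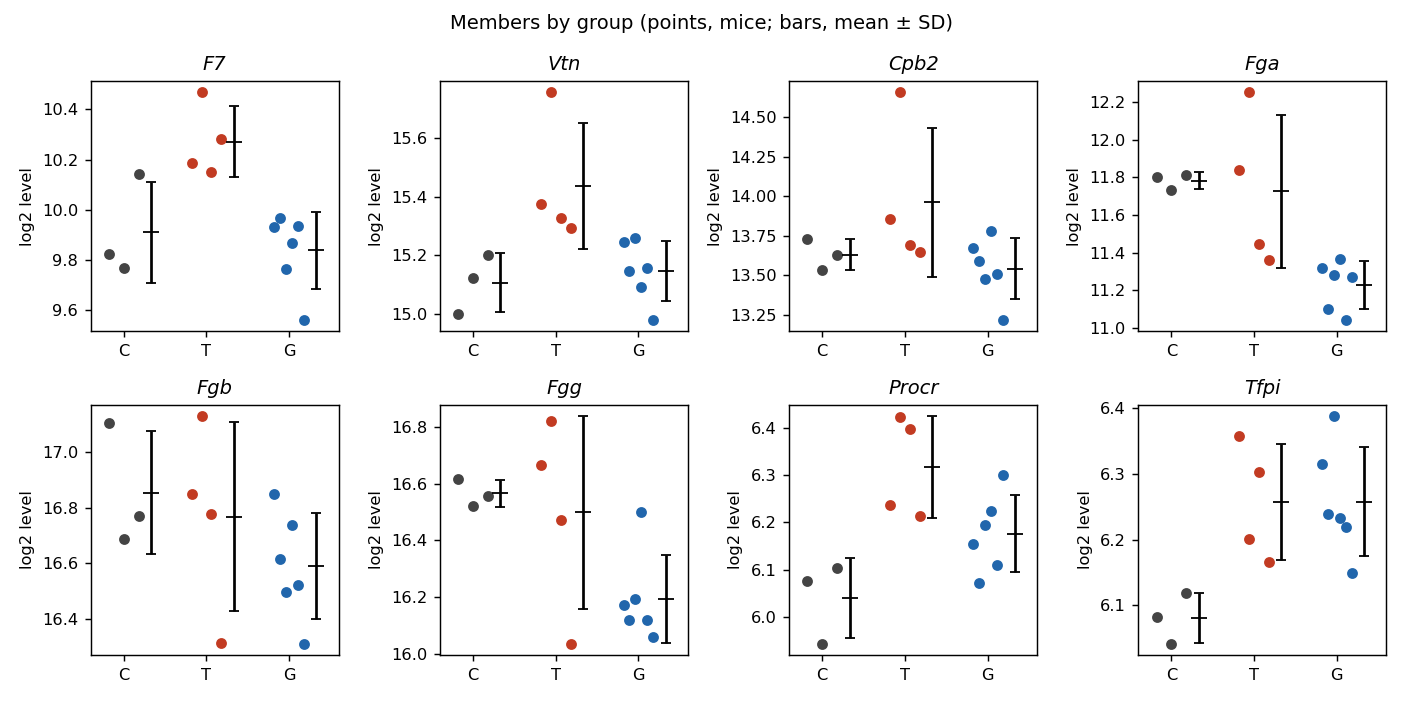
Log2 level (y axis, a separate range for each gene) of 8 genes in groups C, T and G, with 1 point for each mouse (3, 4 and 6) and the mean ± SD beside them. F7 and Vtn of group T lay above both other groups, Fga and Fgg of group G below group C, and Tfpi of group C below the rest. Median scaling turned G minus C of Fga, Fgb and Fgg positive, and on the authors' values it was 0.013 for Fgb and -0.0033 for Fgg.

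By main source, the 20 genes made chiefly by hepatocytes had a median difference of -0.02 for T minus C, -0.16 for G minus T and -0.15 for G minus C. The 10 genes made chiefly by other cells had medians of 0.13, 0.02 and 0.14. Of the 20, 14 had a lower mean in G than in T and 14 a lower mean in G than in C, with 7 and 3 at an unadjusted p under 0.05. Over all 22032 genes, 11853 and 11341 had a lower mean in these comparisons, and 1458 and 1578 were lower at that level. Of the 8493 genes well above background on all arrays, 4731 and 4493 had a lower mean, 819 and 1088 of them at that level. Of the 10, 9 had a higher mean in G than in C, with 3 at that level. Over all genes 10691 of 22032 had a higher mean in G than in C, 1343 of them at that level. All of the 10 but Vwf and F2r lie near the background. Under median scaling the median difference over all 32 genes was 0.65 for G minus C, and on the authors' values it was 0.010. The directions by source are therefore those of the main processing, and their medians were not computed under these 2 settings. Of the 10 markers of liver endothelial cells limma called none between T and C, and their summed intensity was 2612 to 3165 in C, 2343 to 3439 in T and 2801 to 3344 in G. Of the 8 markers of platelets and megakaryocytes, which also carry coagulation proteins, Pf4 (0.85, adjusted p = 0.0487) and Ppbp (0.49, adjusted p = 0.0258) were called higher in T than in C. Of the 8, 6 had a positive and 2 a negative difference. The lowest was Gp6 at -0.39, with all mice of T below those of C. The summed intensity of those markers was 574 to 598 in C, 656 to 693 in T and 604 to 767 in G, and 1 of the 8 stood above background on no array. The erythroid list summed to 8092 to 13750 in C, 16472 to 21494 in T and 9741 to 37328 in G. Of 7 macrophage markers, Emr1 was called higher in T than in C (0.31, adjusted p = 0.0267). Of the 7, 5 had a positive and 2 a negative difference, the lowest being Cd68 at -0.25. That list summed to 1231 to 1585 in C, 1494 to 1914 in T and 1403 to 2049 in G. The 8 markers of stellate cells and fibroblasts summed to 6144 to 9968 in C, 3377 to 6561 in T and 1413 to 8023 in G, with none called. A missing marker adds nothing to these sums. Dcn, a bright marker of this list, was missing in G4 and G5 and between 12.28 and 12.59 in the other mice of G. The low end in G is therefore a sum without Dcn and cannot be set against C and T. None of the 6 erythroid markers was called, and 1 stood above background on no array. The part of these cells in the values above was not tested.

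Mouse T2 held the highest of the 13 values in 12 genes, F7, F9, Pros1, Kng1, Fga, Fgb, Fgg, Plg, Cpb2, Hrg, Vtn and Procr, and the lowest in Proc and Klkb1. Of these 14 genes all but Procr are made chiefly by hepatocytes. The like counts over all genes were not made. Over 8493 genes, the log2 differences of T2 from the other arrays of T had an SD of 0.330 to 0.434. Other pairs of arrays of T with unlike RNA codes had 0.235 to 0.328. In T2, 12 of 12 acute-phase genes (Saa1, Saa2, Saa3, Lcn2, Orm1, Orm2, Hp, Hpx, Apcs, Itih3, Itih4 and Fgl1, a list drawn up after values had been seen) held the highest value of the 13 mice. Their median lay 3.30 above the mean of group C in T2, between 0.28 and 0.47 above it in the other 3 mice of group T, and at -0.40 to -0.28 from it in group G. Saa1, a serum amyloid A gene, was 18.4 in T2 and at most 14.4 in all other mice. None of the 12 passed the test between T and C or between G and T, the smallest adjusted p being 0.07 and 0.08. Their part in the differences of the coagulation genes was not tested. Without T2, G minus T was -0.32 for Fga, -0.20 for Fgg and -0.37 for F7.

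**Figure D4:**
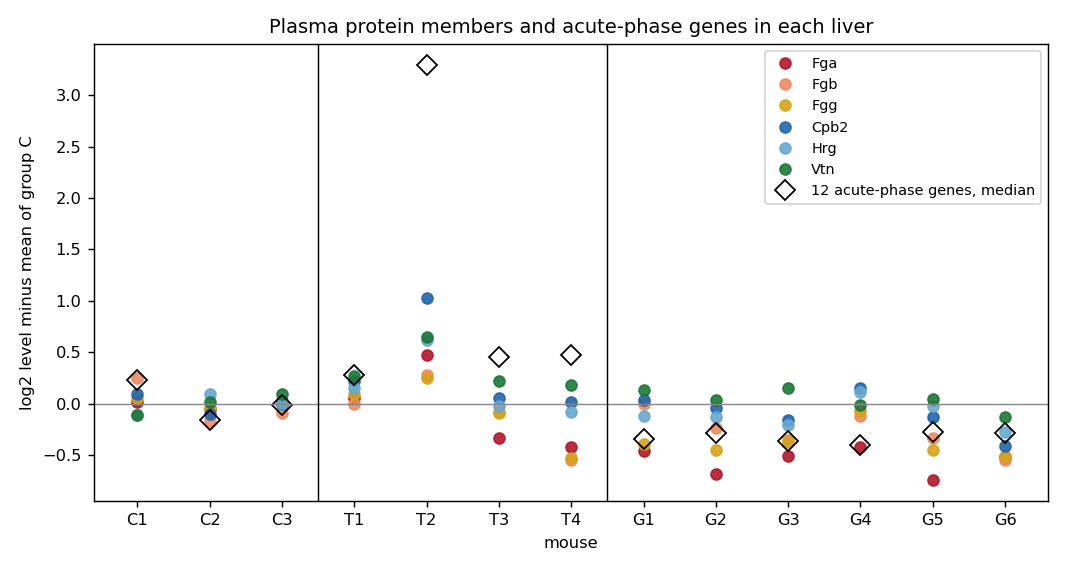
Log2 level minus the mean of group C (y axis) of 6 plasma protein genes (coloured points) and the median of 12 acute-phase genes (open diamonds) in each of the 13 mice (x axis). T2 carried the highest value of every series shown, 3.30 for the acute-phase median and 1.03 for Cpb2. Median scaling turned G minus C of Fga, Fgb and Fgg positive, and on the authors' values it was 0.013 for Fgb and -0.0033 for Fgg.

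At the other end, mouse G6 held the lowest of the 13 values in 10 genes, F7, Pros1, Ggcx, F12, Kng1, F5, Fgb, Cpb2, Hrg and Vtn, and the highest in Vwf, F13a1 and Thbd. For G6, too, the like counts over all genes were not made. The median over the hepatocyte-made genes lay -0.35 from the mean of group C in G6 and between -0.20 and 0.18 in the other mice. The summed platelet and erythroid markers of G6, 767 and 37328, were the highest of all mice. Leaving out T2 and G6 together, an alternative chosen after seeing the data, left the counts at 0 for T against C and for G against T, and called 1 gene, Fga, for G against C.

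Of 23 other genes of the pathway on the array (serpins, receptors and helpers of secretion and activation), 1 was called lower in T than in C, and none was called in the other comparisons. Tfpi2, a Kunitz-type protease inhibitor related to Tfpi, was 7.94, 8.19 and 7.83 in C1 to C3, 7.46, 7.21, 7.19 and 7.37 in T1 to T4, and between 7.29 and 7.71 in group G, with a median of 7.51. All 10 mice given DEN lay under the 3 controls. It fell by 0.67 in T against C (95% confidence interval -0.93 to -0.42, adjusted p = 0.0184), and G minus C was -0.49 (adjusted p = 0.08). Under median scaling its difference of T minus C was -0.01 (adjusted p = 0.98).

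S100a10 and Serpina10 had larger differences of T minus C than Tfpi2, without passing the test. S100a10, the partner of annexin A2 in binding plasminogen at the cell surface, was 10.11, 9.95 and 9.82 in C1 to C3 and 9.25, 8.92, 9.08 and 9.46 in T1 to T4. It ranged from 9.02 to 10.33 in group G, with a median of 9.52. The mice of T lay below those of C, with a difference of -0.78 (-1.30 to -0.26, adjusted p = 0.10), which median scaling turned to 0.15. Serpina10, the protein Z-dependent inhibitor, was 11.23, 10.998 and 11.20 in C1 to C3 and 11.47, 12.95, 11.46 and 11.52 in T1 to T4. It ranged from 11.01 to 11.30 in group G, with a median of 11.05. T minus C was 0.71 (0.09 to 1.32, adjusted p = 0.19) and 0.34 without T2. The mice of T lay above those of C and of G, with T2 far above the other 3.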

How the data were processed

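Liver RNA was measured on 1-colour Agilent 8x60K arrays. The deposited scanner files hold intensities made by the authors with Feature Extraction 10.7.3.1, and the deposited value table holds the authors' normalized log2 values, used as an alternative. Probe positions are mm9 per the file headers. The mean signal was corrected by normexp with the median background (offset 50). Its log2 values were then quantile normalized over 59305 spots that are not controls. Outlier-flagged spots were dropped, spots of a probe and then centred probes of a symbol were averaged, and the 2 arrays of 1 RNA code were averaged. The probe values differed from the authors' table by a median of 0.00291.

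The 13 mice were fitted in 1 model with limma 3.58.1 in R 4.3.3, with Benjamini-Hochberg adjustment over 22032 genes and a threshold of 0.05, and intervals are 95% confidence intervals. The script was tested on simulated data. Folds over the floor set the brighter group's mean against the lowest signal well above background, or the dim probe's own signal where higher. They leave out the spread between mice and are no lower bounds. The 32 genes and all lists were chosen with earlier results of these data known. Values of every mouse were given for the gene with the largest difference of T minus C in each role, among those well above background on every array of a group, and for called and the 3 largest other pathway genes. Fga, Fgb, Fgg, Vtn, Procr and other genes were added after their values were seen. An equal-variance t-test on the 13 mice, other normalizations, slides, probe rules and leaving out each mouse were tried. For its arrays the paper names the multtest package without the settings, so this t-test need not be the one used there. RefSeq promoters were matched by symbol. The result of 1 other pathway gene is not reported here.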

Additional observations from a re-analysis of the deposited data

Results flagged for a closer look

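Among 63 sets of values tested (the genes in the groups of 4 to 6 mice), 1 held a mouse far from the others of its group. Fgg was 16.4985 in mouse G4, with the nearest other mouse of group G at 16.1924, and this gap made up 0.696 of the range of the group and passed Dixon's critical value for 6 mice. Chance gives about 1 in 20 such sets. Fgg of G4 was still below all 3 mice of group C.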

How the results depend on the processing

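Counts of called genes were 0 in all 3 comparisons and depended on few settings. In T against C, 11 were called under median scaling (F7, F9, Vkorc1, Kng1, Vwf, Fgb, Plg, Cpb2, Hrg, Vtn and Procr), 1 with the authors' value table (Vtn), 1 with 15 arrays as separate samples (Procr) and 0 to 1 when 1 mouse was left out (Procr, without G6). Over all 22032 genes these settings called 2876, 565, 1949 and, without G6, 697. In G against T, 1 was called with 15 arrays as separate samples (F7, against 268 of all genes) and 0 to 0 when 1 mouse was left out. In G against C, 1 was called with only the 2 groups fitted and 1 without T2 and G6, an alternative chosen after seeing the data (Fga in both), and 0 to 0 when 1 mouse was left out. Over all genes the first 2 of these called 57 and 159. F9 and Fgb turned from negative to 0.95 and 1.19 for T minus C under median scaling, with a call. The median difference for T minus C was 0.21 with the processed signal, 0.88 with median scaling, 0.0053 with dim probes left out (27 genes tested), 0.0025 on slide 1, -0.0017 on slide 2 and 0.026 to 0.145 when 1 mouse was left out. For G minus C it was -0.16 and 0.65, and for G minus T -0.24 and -0.18, with the processed signal and median scaling. When 1 mouse was left out it was -0.048 to 0.014 for G minus C and -0.087 to -0.023 for G minus T. The cause was not tested. Of 10 pairs of mice with the same replicate number, 4 correlated above 0.1 (range -0.314 to 0.254). Correlations between mice of unlike number were not computed, so that these values cannot decide whether replicate numbers pair the mice. The replicate block called 0, 0 and 0 genes, with medians of 0.073 for T minus C, -0.014 for G minus T and 0.0073 for G minus C. Signal over background limits the 8 dim genes.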
